A study of Homo sapiens with 8 samples.

Results

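Huh-7 is a human cell line derived from hepatocellular carcinoma, a cancer of liver epithelial cells. Its 2 small RNA-seq libraries, of 8 in the series, were set against those of 3 other tumor-derived lines with 2 libraries each. The other lines were ES-2 from ovarian cancer, MV-3 from melanoma and A-549 from lung adenocarcinoma. Cells of all 4 lines were parental and untreated and were grown in the same medium. The study recorded their miRNA repertoires because the RNA-binding protein IGF2BP1, its subject, interferes with the miRNA-directed decay of mRNAs. Every tumor type was represented by a single line, so that the line and its tissue of origin cannot be told apart. RNA came from bulk cultures, in which a low level in all cells and expression in few cells cannot be told apart either.

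miRNAs are short RNAs cut from hairpin precursors, of which the left arm gives the -5p and the right arm the -3p miRNA. They guide Argonaute proteins to mRNAs mainly through the seed, the bases near their 5′ end, so that miRNAs with the same seed share many predicted targets. Hairpins that lie close together on a strand are often cut from the same primary transcript. miR-122-5p is the dominant miRNA of hepatocytes and acts in lipid metabolism and in hepatitis C virus replication, for which Huh-7 is a common host. The let-7 family increases during differentiation and represses growth and oncofetal mRNAs, among them those of the IGF2BP proteins.

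Markers and other miRNAs that go with liver origin are shown first, with members of their seed families. miR-1269a and miR-1269b, at the end of the block, are outside the liver list and share no seed with it. Mature sequences are from RefSeq (GRCh38.p14), 5′ to 3′, with the seed (bases 2 to 8) in capitals. Neither arm of the miR-483 hairpin is printed.
miR-122-5p: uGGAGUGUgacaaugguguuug
miR-885-5p: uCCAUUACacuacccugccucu
miR-148a-3p: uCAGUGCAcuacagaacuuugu
miR-148b-3p: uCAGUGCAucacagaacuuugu
miR-152-3p: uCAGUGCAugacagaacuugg
miR-192-5p: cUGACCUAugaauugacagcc
miR-215-5p: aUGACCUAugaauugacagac
miR-194-5p: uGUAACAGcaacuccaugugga
miR-1269a: cUGGACUGagccgugcuacugg
miR-1269b: cUGGACUGagccaugcuacugg

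The miRNAs that were lowest in Huh-7, or whose family changed its make-up there, are shown in the same way. All 9 let-7 members carry the seed GAGGUAG, and the sequences differ behind it.
let-7a-5p: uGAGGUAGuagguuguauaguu
let-7b-5p: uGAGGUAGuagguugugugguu
let-7c-5p: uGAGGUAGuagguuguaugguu
let-7d-5p: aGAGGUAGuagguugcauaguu
let-7e-5p: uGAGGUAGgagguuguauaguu
let-7f-5p: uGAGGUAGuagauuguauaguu
let-7g-5p: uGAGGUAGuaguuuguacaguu
let-7i-5p: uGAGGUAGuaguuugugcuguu
miR-98-5p: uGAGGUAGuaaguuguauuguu
miR-100-5p: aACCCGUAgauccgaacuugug
miR-99a-5p: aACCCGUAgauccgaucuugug
miR-31-5p: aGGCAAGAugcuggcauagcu
miR-361-5p: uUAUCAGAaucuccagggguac

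The Huh-7 libraries held 2173587 and 1718250 miRNA reads, within the range of 1173902 to 2670030 of the other libraries. Levels are given as reads, as library CPM (reads scaled to the miRNA reads of the library) or as normalised CPM, the deposited value, which also carries a factor for library composition (TMM). These factors were 1.63 and 1.70 in Huh-7 and 0.593 to 1.18 in the other libraries, so that the same number of reads gives a lower normalised CPM in Huh-7. Against the mean of the other lines, the 528 tested miRNAs had a median log2 fold change of 0.12 by normalised CPM and 1.06 by library CPM. Directions of small differences therefore depended on this factor. Of 1327 miRNA names with a read in any library, 858 and 842 were detected in the Huh-7 libraries and 608 to 724 in the others.

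To find what sets Huh-7 apart, each miRNA was compared between Huh-7 and every other line. Log2 fold changes, with their standard errors (SE), are from limma on log2(normalised CPM + 1), and a miRNA was called at a Benjamini-Hochberg adjusted p below 0.01. Of 528 miRNAs, 75 were higher in Huh-7 than in each of the 3 lines (14.2%) and 61 were lower than in each (11.6%). The same rule set apart 35 higher and 21 lower miRNAs in ES-2, 17 and 16 in MV-3, and 69 and 25 in A-549. By pair, 146 (27.7%) were higher and 114 (21.6%) lower than in ES-2, 142 (26.9%) and 106 (20.1%) than in MV-3, and 125 (23.7%) and 151 (28.6%) than in A-549. By library CPM the counts were 227 higher and 87 lower than in ES-2, 187 and 92 than in MV-3, and 244 and 111 than in A-549, so that the higher miRNAs made up 68.7% of those called against A-549 in place of 45.3%, 72.3% in place of 56.2% against ES-2 and 67.0% in place of 57.3% against MV-3. These comparisons share the Huh-7 libraries. Against the mean of the 3 lines with equal weights, 156 were higher (29.5%) and 138 lower (26.1%), and without the composition factor 246 and 110. The share of higher miRNAs among all called was thus 53.1% with the factor and 69.1% without it.

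Both sets were picked for their direction in Huh-7, so the direction of their shares of reads is not a result. The higher set was small in number but large in reads there. It held 29.0% and 30.1% of miRNA reads in the Huh-7 libraries and 1.49% to 2.63% in the other libraries. Without miR-122-5p it still held 15.7% and 15.4% in Huh-7. The lower set held 37.2% and 36.8% of reads in Huh-7 and 75.9% to 85.7% elsewhere, and it includes miR-21-5p, the most abundant miRNA in all 4 lines and at 33.1% of reads in Huh-7. By library CPM miR-21-5p was not in the lower set. Among all miRNAs tested, 84 passed the filter on low values through the Huh-7 libraries alone and had to be higher there. Of the 75 higher miRNAs, 38 were of this kind, while the filter passed all 61 lower miRNAs without Huh-7. All 75 higher miRNAs were also called higher than each line by library CPM, where 146 were. Of the 61 lower miRNAs, 41 were also called lower by library CPM and 0 were called higher.

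**Figure D1:**
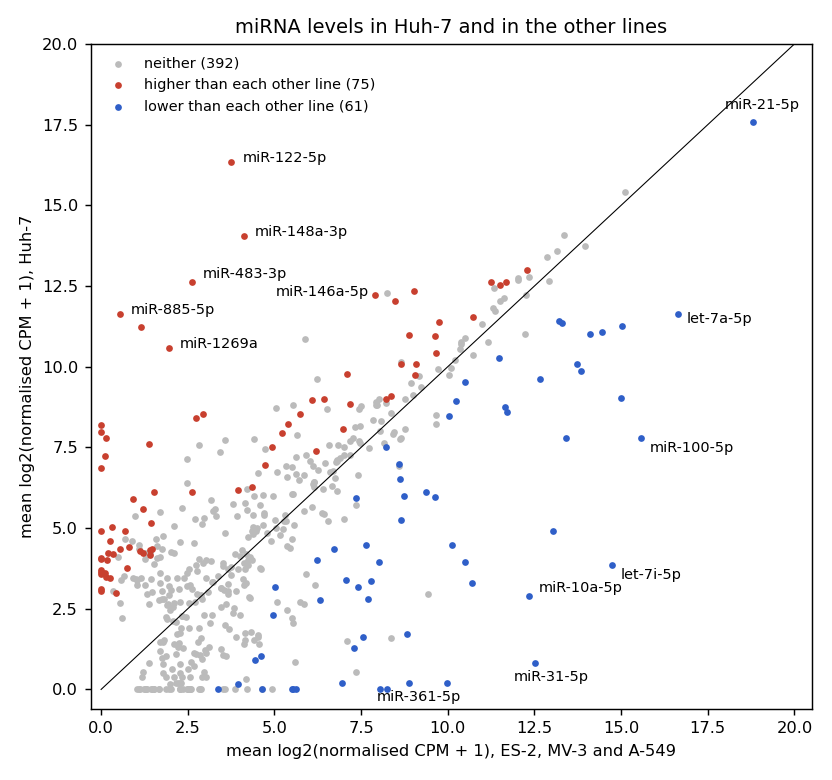
Mean log2(normalised CPM + 1) of 528 tested miRNAs in the 2 Huh-7 libraries (vertical axis) against the mean of the 6 libraries of ES-2, MV-3 and A-549 (horizontal axis). Each point is a miRNA, the line marks equal levels, and the 75 miRNAs called higher and 61 called lower than in each other line are coloured. miR-122-5p stands far above the line and miR-31-5p, let-7i-5p and miR-10a-5p far below it.

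The 4 markers of liver-derived cells used here, miR-148a-3p, miR-122-5p, miR-483-3p and miR-885-5p, were all higher in Huh-7 than in each line. Of all tested miRNAs, 14.2% were. miR-885-5p passed the filter only through Huh-7, so it had to be higher there, and nothing is read from its call. The hepatocyte miRNA miR-122-5p had 288469 and 252449 reads in the Huh-7 libraries, 6 and 57 in ES-2, 53 and 48 in MV-3, and 12 and 4 in A-549. It made up 13.98% of Huh-7 miRNA reads, and no library of another line came near that level. Its log2 fold change was smallest against MV-3 at 11.30 (SE 0.80, limma's adjusted p = 3.88e-05) and largest against A-549 at 13.77. The passenger arm miR-122-3p had 988 and 662 reads in the Huh-7 libraries and 0 in the 6 other libraries. Set against a floor of 3 reads in each library, it was at least 139-fold higher than in ES-2, 130-fold higher than in MV-3 and 117-fold higher than in A-549 by normalised CPM, and at least 187-fold higher than in each line by library CPM. Both are cut from a hairpin at 58451074 to 58451158 of chromosome 18 (plus strand, GRCh38), where the annotation places an exon of MIR122HG in some of its transcripts.

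Both arms of miR-885, a liver-enriched miRNA that is also found in brain, behaved alike. miR-885-5p had 11365 and 9256 reads in the Huh-7 libraries, 2 and 5 in MV-3, and 0 in both libraries of ES-2 and A-549. Set against the floor, it was higher by a factor of at least 1756 than in ES-2 and 1479 than in A-549 by normalised CPM, and of at least 3412 and 4115 by library CPM. Against MV-3 the ratio was 1443 with a 95% interval of 700.1 to 3589, which covers counting error only. miR-885-3p had 1050 and 841 reads in the Huh-7 libraries and 0 elsewhere. ATP2B2, a calcium pump gene, carries the hairpin in an intron, at 10394489 to 10394562 of chromosome 3 (minus strand).

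The hairpin of miR-483 lies in an intron of IGF2, the gene of a fetal growth factor that is active in liver, at 2134134 to 2134209 of chromosome 11 (minus strand). miR-483-3p had 22452 and 18585 reads in the Huh-7 libraries, 0 and 15 in ES-2, 6 and 12 in MV-3, and 19 and 13 in A-549. miR-483-5p had 8291 and 7232 reads in the Huh-7 libraries and between 0 and 13 in the other libraries. The smallest of the 3 log2 fold changes was against A-549 for both arms, 9.03 (SE 0.92, limma's adjusted p = 0.000204) for miR-483-3p and 9.46 (SE 1.27) for miR-483-5p. miR-483-5p passed the filter only through Huh-7, so it had to be higher there, and nothing is read from its call. In ES-2, all reads of either arm came from replicate 2. The 2 arms of miR-675, which is cut from the neighboring H19 transcript, were not tested, and 1 of them had a read in any library.

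The level of miR-148a-3p, which is abundant in liver and targets mRNAs of lipid and methylation enzymes, was based on 62362 and 47269 reads in Huh-7. The other libraries had between 9 and 68 reads, the most in A-549. A-549 came closest, at a log2 fold change of 8.77 (SE 0.45, limma's adjusted p = 7.44e-06). Its passenger arm miR-148a-5p followed with 591 and 399 reads in Huh-7 and 1 read in the 6 other libraries. The hairpin spans 25949919 to 25949986 of chromosome 7 (minus strand), inside an intron of a gene without a symbol.

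The remaining liver-enriched miRNAs did not all separate Huh-7 from lung-derived A-549. Of 10 liver-enriched miRNAs listed, 9 were tested. miR-122-3p, miR-885-5p and miR-885-3p passed the filter only through Huh-7 and had to be higher there. Of the other 6, 4 were higher in Huh-7 than in each line and 1 was lower, beside 14.2% and 11.6% of all tested miRNAs. The summed library CPM of the list was 186719 and 197981 in Huh-7 and 1564 to 5594 in the other libraries. The lower member was miR-101-3p, which represses the methyltransferase EZH2, and this call was not made by library CPM. miR-192-5p, a p53-responsive miRNA of liver, gut and kidney, had 19125 and 13691 reads in Huh-7, 7675 and 5327 in A-549 and 109 to 149 in ES-2 and MV-3. It differed from A-549 by 0.15 on the log2 scale (SE 0.14, limma's adjusted p = 0.404), and from ES-2 by 6.02. By library CPM miR-192-5p was higher in Huh-7 than in each line. miR-194-5p, which shares both of its transcripts with miR-192 or miR-215, showed the same order, with 18351 and 13144 reads in Huh-7, 5027 and 3914 in A-549 and 85 to 119 elsewhere. It was called against A-549, with a log2 fold change of 0.61 (SE 0.11, limma's adjusted p = 0.0034). The last member, miR-802, had no read in any library.

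Seed relatives of the liver miRNAs differed among themselves. miR-215-5p shares its seed with miR-192-5p and was higher in Huh-7 than in each line, with 1349 and 878 reads against 62 and 60 in A-549 and 0 to 7 in ES-2 and MV-3. Its passenger arm miR-215-3p had 74 and 33 reads in Huh-7 only. miR-148a-3p, miR-148b-3p and miR-152-3p share a seed, and miR-148a-3p differs from miR-148b-3p at 2 positions. In Huh-7, 90.1% of the reads of this family came from miR-148a-3p in either library, against 0.282% to 2.73% in the others. miR-152-3p was lower in Huh-7 than in each line by normalised CPM (log2 fold change -1.51 against A-549, SE 0.17, limma's adjusted p = 0.000345) but was not called so by library CPM. Summed over the seed, the family was higher in Huh-7 than in each line, at 3.184% and 3.05% of reads against 0.0934% to 0.272% elsewhere.

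**Figure D2:**
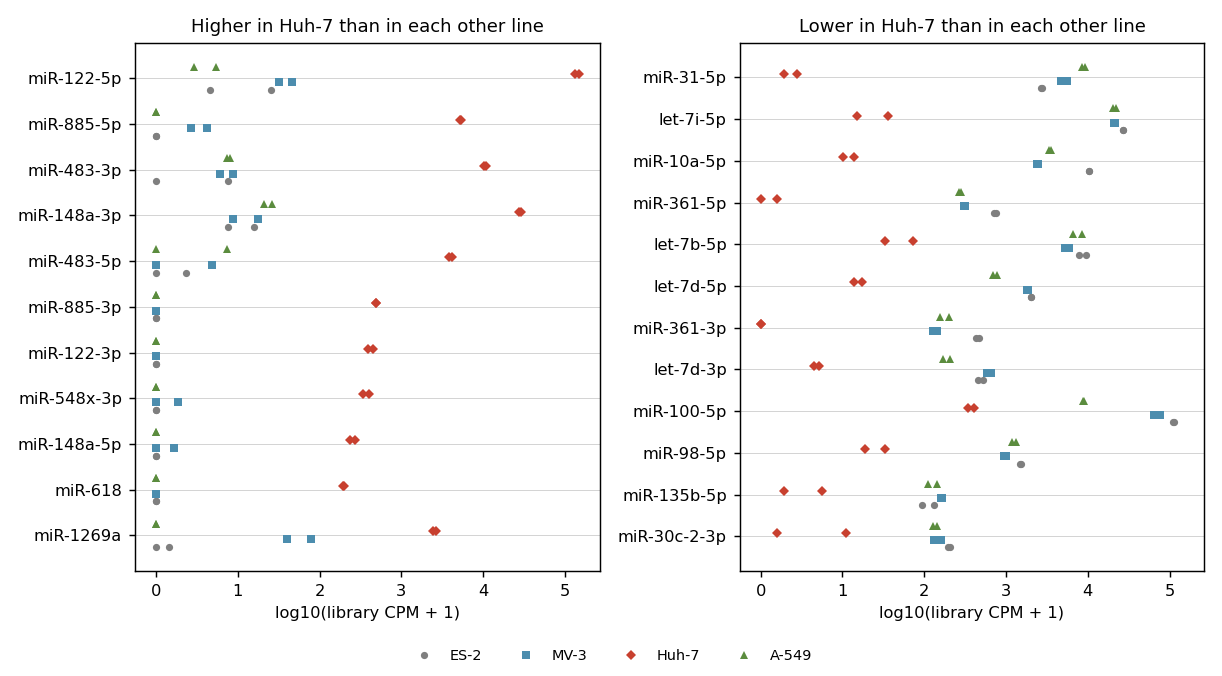
Library CPM on a log10(library CPM + 1) axis of the 11 miRNAs set furthest above (left) and the 12 set furthest below (right) every other line in Huh-7, among abundant ones. Every symbol is a library, 2 per line, coloured by line, and symbols that coincide overlie each other. In each row both Huh-7 libraries stand on 1 side of the 6 others, which follows from how the rows were picked. Of 528 tested miRNAs, 155 were above and 84 below every other library in Huh-7 by normalised CPM.

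Outside the liver list, further abundant miRNAs were high in Huh-7. miR-1269a had 5747 and 4208 reads in Huh-7, 46 and 119 in MV-3, 0 and 1 in ES-2 and 0 in A-549. Its paralog miR-1269b, which differs at 1 position and lies on another chromosome, had 1364 and 1021 reads in Huh-7, 16 and 11 in MV-3, 0 in ES-2 and 74 and 56 in A-549. Both were higher in Huh-7 than in each line, and MV-3 was the next line for miR-1269a but A-549 for miR-1269b. The smallest log2 fold changes were 4.98 (SE 0.43, limma's adjusted p = 9.61e-05) for miR-1269a, against MV-3, and 2.97 (SE 0.37, adjusted p = 0.000516) for miR-1269b, against A-549. How reads that fit both paralogs were counted is not given in the sources used here, so the split between them is uncertain.

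miR-618, in an intron of LIN7A on chromosome 12, had 426 and 326 reads in Huh-7 and 0 in the other libraries, at least 53.8-fold more than in A-549 by normalised CPM and at least 149.5-fold by library CPM. miR-548x-3p, of a large primate-specific family with near-identical members, had 866 and 586 reads in Huh-7 and 1 read elsewhere. Both passed the filter only through Huh-7, so they had to be higher there, and nothing is read from their calls. miR-217 and miR-216b-5p, which are known from pancreas and share the transcript MIR217HG, were also read mostly in Huh-7. miR-217 had 205 and 115 reads in Huh-7 and at most 9 elsewhere, and miR-216b-5p had 277 and 178 against at most 8.

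Other members of the higher set were expressed in all lines. miR-146a-5p, a repressor of NF-κB signaling best known from immune cells, had 15352 and 11733 reads in Huh-7 and 229 to 1089 in the others, with the smallest log2 fold change of 2.90 (SE 0.09, limma's adjusted p = 9.07e-07) against MV-3. Its seed relative miR-146b-5p was higher too, by 0.86 (SE 0.19, adjusted p = 0.00862) against ES-2. miR-196a-5p, which is encoded in the HOXB and HOXC clusters and targets HOX mRNAs, had 17775 and 15608 reads in Huh-7 and 348 to 1685 elsewhere. miR-191-5p had 23598 and 17651 reads against 2165 to 5649, with ES-2 closest at a log2 fold change of 1.17 (SE 0.10, limma's adjusted p = 7.8e-05). miR-26a-5p, a liver-abundant growth repressor and with miR-21-5p, miR-122-5p, miR-92a-3p and miR-148a-3p among the 5 most abundant miRNAs of Huh-7, had 64208 and 48353 reads against 8543 to 30457. It was higher than in MV-3 and A-549, while the difference from ES-2 was 0.18 on the log2 scale (SE 0.06, limma's adjusted p = 0.0445), and by library CPM it was higher than in each line. In all, 15 of the 75 higher miRNAs had a smallest log2 fold change below 1, and 17 had at least 4.

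At the other end, miR-31-5p was nearly missing from Huh-7. It had 2 and 3 reads there, at or under the detection floor of 3 reads, against 4574 and 6219 in ES-2, 5515 and 8577 in MV-3, and 24793 and 17347 in A-549. The ratio of ES-2 to Huh-7 was 4129 (95% interval 1769 to 12718), and that of A-549 to Huh-7 was 19179 (8218 to 59071). Counting error alone is covered by these intervals. By library CPM the ratios were 2122 and 6934. The passenger arm miR-31-3p had 0 reads in Huh-7 and 14 to 90 in the others. MIR31HG, a long non-coding RNA gene, holds the hairpin in an intron, at 21512115 to 21512185 of chromosome 9 (minus strand).

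Both arms of miR-361 showed the same pattern. miR-361-5p had 0 and 1 reads in the Huh-7 libraries and 357 to 1744 in the 6 other libraries, and the ratio of MV-3 to Huh-7 was 1732 (95% interval 309.9 to 68474). By library CPM the ratios to Huh-7 were 1212 for MV-3 and 1061 for A-549. miR-361-3p had 0 reads in Huh-7 and 148 to 1075 in the others. Set against the floor in Huh-7, its level there was lower by a factor of at least 123 compared with MV-3, 315 compared with A-549 and 563 compared with ES-2 by normalised CPM. By library CPM these bounds were 86.0, 113 and 288. CHM, the gene of a Rab escort protein, holds the hairpin in an intron, at 85903636 to 85903707 of chromosome X (minus strand).

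miR-10a-5p, encoded in the HOXB cluster beside HOXB3, had 20 and 22 reads in Huh-7. ES-2 had 17083 and 23860, A-549 had 8949 and 7385, and MV-3 had 2872 and 3681. The weakest pair was that with MV-3, at -8.11 on the log2 scale (SE 0.13, limma's adjusted p = 5.46e-08). Its close relative miR-10b-5p from the HOXD cluster was abundant in Huh-7 with 9490 and 7164 reads, and was called neither against ES-2 nor against MV-3, whereas by library CPM it was higher than in each line. Of the 5 HOX-cluster miRNAs listed, all were tested. miR-196a-5p and miR-615-3p were higher in Huh-7 than in each line, and miR-10a-5p was lower, beside 14.2% and 11.6% of all tested miRNAs.

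Several of the miRNAs lowest in Huh-7 are prominent elsewhere. miR-100-5p, a repressor of mTOR and IGF receptor mRNAs, had 868 and 593 reads in Huh-7, where A-549 had 24216 and 17862, MV-3 had 88376 and 100030, and ES-2 had 185512 and 254171. The difference from A-549 was -6.05 on the log2 scale (SE 0.11, limma's adjusted p = 1.53e-07). miR-155-5p, an oncogenic miRNA of lymphoid cells, had 0 and 1 reads in Huh-7, 62 and 47 in A-549, 3325 and 5870 in MV-3, and 12992 and 18459 in ES-2. miR-135b-5p had 2 and 8 reads in the Huh-7 libraries and 185 to 384 in the others. For miR-30c-2-3p the Huh-7 libraries differed, with 22 reads in replicate 1 and 1 in replicate 2, but both were below the 188 to 476 reads of the other libraries.

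The let-7 family was low as a whole. All 9 tested let-7-5p members were lower in Huh-7 than in each line by normalised CPM, beside 11.6% of all tested miRNAs. Their median log2 fold change was -5.64 against the mean of the lines, beside 0.12 over everything tested. By library CPM let-7e-5p and let-7c-5p were not called lower than in each line. The direction of let-7c-5p against A-549 depended on the composition factor. It took 0.0813% and 0.0833% of reads in Huh-7 and 0.0499% and 0.0675% in A-549. The family took 1.39% and 1.53% of reads in Huh-7 and 10.6% to 21.2% in the others. let-7i-5p had 31 and 60 reads in the Huh-7 libraries and 24299 to 60941 elsewhere. let-7b-5p had 70 and 124 against 6184 to 21636, let-7d-5p had 36 and 22 against 1581 to 4696, and miR-98-5p had 69 and 31 against 1104 to 3354. The weakest of their 3 log2 fold changes ran from -10.30 (SE 0.33, limma's adjusted p = 9.07e-07) for let-7i-5p to -5.76 (SE 0.25, adjusted p = 3.56e-06) for miR-98-5p.

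What remained of the family in Huh-7 had another make-up. let-7e-5p supplied 29.3% and 30.4% of family reads in Huh-7 and 2.35% to 9.08% in the other libraries. let-7f-5p supplied 26.2% and 23.7% against 10.0% to 15.9%, and let-7c-5p supplied 5.87% and 5.45% against 0.473% to 0.837%. let-7a-5p, the leading member in every library, supplied 35.2% and 37.2% in Huh-7 and 42.5% to 60.9% in the others. let-7i-5p supplied 12.03% to 19.4% in the other lines and 0.103% and 0.228% in Huh-7. let-7c, let-7e and let-7f differ from let-7a-5p at 1 position each and the others at 2 or, in let-7i-5p, 4. Whether reads with a mismatch were assigned across members is not given in the sources used here, which limits the values of the closest members.

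**Figure D3:**
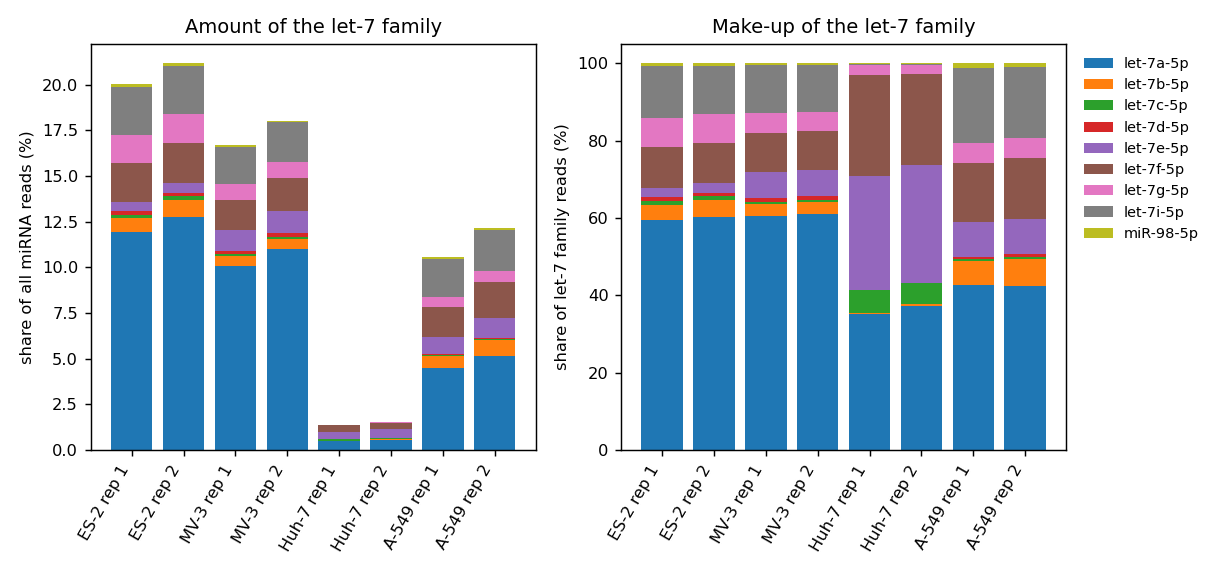
The let-7 family in the 8 libraries, as a share of all miRNA reads (left, in percent) and split by member within the family (right, in percent). Bars are single libraries, and colours are members. The Huh-7 bars reach 1.39% and 1.53% on the left, and on the right let-7e-5p and let-7f-5p take a larger part in them than in the other bars.

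Passenger arms of let-7 were low in part. let-7d-3p had 9 and 6 reads in the Huh-7 libraries and 347 to 1186 in the others. let-7b-3p had 0 reads in Huh-7 and 56 to 123 elsewhere, and let-7i-3p had 0 against 44 to 106. All 3 arms were lower in Huh-7 than in each line, and their reads in Huh-7 were under those in all other libraries. So were let-7a-3p and let-7e-3p called, beside 11.6% of all tested miRNAs. let-7a-2-3p, let-7c-3p, let-7f-1-3p and let-7f-2-3p were tested and not set apart, and let-7f-2-3p was not called against the mean either. By normalised CPM, 84 of 528 tested miRNAs were below every other library in Huh-7.

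A seed family can hold members that moved in opposite directions. Of 408 seed families, built from the 483 of 528 tested miRNAs with a sequence, 58 were higher in Huh-7 than in each line (14.2%) and 41 were lower (10.0%). Several tested members were present in 45 families. Where every member passed the filter only through Huh-7, as in that of miR-885-5p, the family had to be higher there. The count of 58 does not leave such families out. In 3 families 1 member was higher and another lower than in each line. They were miR-148a-3p with miR-152-3p, miR-99a-5p with miR-100-5p, and miR-25-3p with miR-92b-3p. In the miR-99/100 family, which targets mTOR, miR-99a-5p had 7508 and 5632 reads in the Huh-7 libraries and 351 to 1748 in the others, and miR-100-5p supplied 3.34% and 3.05% of family reads in Huh-7 against 63.9% to 97.5% elsewhere. miR-99a-5p and miR-100-5p differ at 1 position. The sum of the family was lower in Huh-7 than in each line by normalised CPM. By share of reads, Huh-7 at 1.20% and 1.13% was closest to A-549 at 1.42% and 1.33%, and ES-2 reached 11.4%. The families with the largest differences were those of miR-122-5p, miR-31-5p, miR-885-5p, miR-155-5p and miR-10a-5p, each with 1 tested miRNA that had a sequence. That of miR-10a-5p lacks miR-10b-5p, a tested miRNA with the same seed and more reads in Huh-7, for which no sequence was at hand, and its value is therefore that of miR-10a-5p, not of the family.

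Hairpins that lie near each other were examined next. A cluster was taken as hairpins on 1 strand with gaps of at most 10000 bases, and 42 clusters had tested miRNAs from at least 2 hairpins. Of the higher set 18 of 75 miRNAs (24%) lay in such clusters and of the lower set 28 of 61 (45.9%), against 39.6% of all tested. In 8 clusters at least 1 miRNA was higher in Huh-7 than in each line, in 12 at least 1 was lower, and in 1 both occurred. In 4 clusters every tested miRNA was lower than in each line, and in 1 every tested miRNA was higher. That last cluster includes miR-215-3p, which passed the filter only through Huh-7. miRNAs with copies in several clusters, such as let-7a-5p, miR-29b-3p and miR-24-3p, were counted in each. The cluster of miR-23b and miR-27b held a lower miRNA through miR-24-3p alone.

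The cluster on chromosome X at 50003148 to 50014683, plus strand, in introns of the chloride channel gene CLCN5, was high in Huh-7. It holds 8 hairpins from miR-532 to miR-502. Of its 14 tested miRNAs, 8 were higher in Huh-7 than in each line, beside 14.2% of all tested miRNAs. Among the 8 were miR-532-5p, miR-362-5p, miR-501-3p, miR-660-5p and miR-502-3p. Any of the 14 that passed the filter only through Huh-7 had to be higher there. Against the mean of the lines 13 of 14 were called higher, beside 29.5% of all tested miRNAs. Log2 fold changes were 2.22 to 3.48 over all 14. Summed over the cluster, library CPM was 5032 ± 88.6 (SD, n = 2) in Huh-7, 477 ± 23.3 in MV-3, 310 ± 3.4 in ES-2 and 374 ± 31.9 in A-549. miR-501-3p and miR-502-3p differ at 2 positions, so their separate values are uncertain. Beside 14.2% of all tested miRNAs, all 3 tested from the miR-215 and miR-194-1 hairpins on chromosome 1 were higher in Huh-7 than in each line. So were 2 of 4, miR-191-5p and miR-425-5p, of the hairpins in an intron of DALRD3 on chromosome 3. The latter summed to 14081 ± 498 library CPM in Huh-7 and to 1521 to 4117 in the other lines.

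The miR-23a, miR-27a and miR-24-2 cluster on chromosome 19, at 13836287 to 13836659, minus strand, in MIR23AHG, was lower in all of its 6 tested miRNAs. miR-23a-3p had 7945 and 5507 reads in the Huh-7 libraries and 17401 to 45211 elsewhere, with a weakest log2 fold change of -2.59 (SE 0.10, limma's adjusted p = 1.61e-06) against ES-2. miR-24-3p, which is also encoded on chromosome 9, had the smallest difference in the cluster and was not called by library CPM. miR-221 and miR-222, which repress the cell cycle inhibitor p27 and lie together on chromosome X, summed to 5731 ± 96.5 library CPM in Huh-7 (SD, n = 2), 13082 ± 203 in A-549, 64819 ± 1683 in MV-3 and 82735 ± 1707 in ES-2. The miR-29a and miR-29b-1 cluster on chromosome 7, whose miRNAs target collagen mRNAs, summed to 1900.3 ± 119 in Huh-7 and to 4194 ± 384 in A-549, its next line. By contrast, in the cluster of miR-99a and let-7c on chromosome 21 miR-99a-5p was higher and let-7c-5p lower than in each line. By library CPM let-7c-5p was not lower than in A-549.

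**Figure D4:**
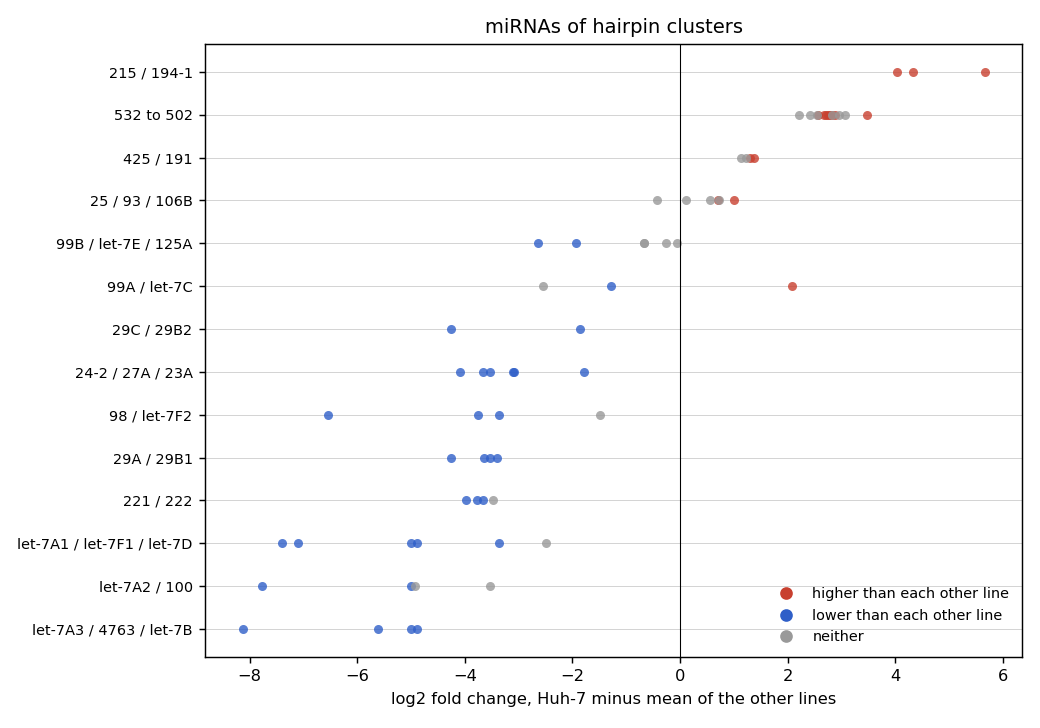
Log2 fold changes of Huh-7 against the mean of the other lines (horizontal axis) for tested miRNAs of the 14 hairpin clusters with at least 2 miRNAs set apart. Each point is a miRNA, a row is a cluster named by its hairpins, and colours mark miRNAs higher or lower than in each other line. Points of a cluster lie on the same side of 0 except in the rows of miR-99a with let-7c and of miR-25, miR-93 and miR-106b.

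Markers of other cell types were examined in the same way. Of 5 listed members of the epithelial miR-200 family, which maintains E-cadherin, 4 were tested. None was higher in Huh-7 than in each line, but all 4 were higher than the mean of the lines, beside 29.5% of all tested miRNAs. miR-200b-3p had 6558 and 5442 reads in the Huh-7 libraries, 2120 and 1716 in A-549 and 13 to 39 in ES-2 and MV-3. On the log2 scale it differed from ES-2 by 7.72 (SE 0.26, limma's adjusted p = 9.18e-07) and from A-549 by 0.45 (adjusted p = 0.168), whereas by library CPM it was higher than in each line. Mesenchymal miRNAs were low in part. miR-199a-3p, abundant in fibroblasts, had 26 and 18 reads in Huh-7, 18 and 8 in A-549 and 6718 to 12515 in ES-2 and MV-3. Its sequence is shared with miR-199b-3p, so that the values of both names are uncertain. Of 7 mesenchymal miRNAs tested, 0 were set apart from each line and 3 were lower than the mean, beside 26.1% of all tested miRNAs. Tested miRNAs of the miR-143 and miR-145 hairpins summed to 454 library CPM in Huh-7, above 14.9 in ES-2. They summed to 1229 in MV-3 and 1567 in A-549. Summed library CPM of the list was 446 and 489 in Huh-7, 1551 and 1580 in A-549 and 6729 to 15483 in the other lines.

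Of 9 hematopoietic miRNAs listed, 6 were tested. miR-146a-5p and miR-146b-5p were higher in Huh-7 than in each line and miR-155-5p was lower, beside 14.2% and 11.6% of all tested miRNAs. The erythroid miR-486-5p had 2766 and 2306 reads in the Huh-7 libraries, 581 and 383 in A-549 and 9 to 211 elsewhere, and was not called against A-549 (log2 fold change 1.22, SE 0.37, limma's adjusted p = 0.0252), although by library CPM it was higher than in each line. In Huh-7, 5 of the 9 had at most 3 reads in each library. Of 7 neuronal miRNAs, 6 were tested. miR-9-5p, with 23 and 38 reads in Huh-7 and 82 to 934 in the others, and miR-218-5p, with 211 and 231 against 377 to 2744, were lower than in each line, miR-9-5p not so by library CPM. Among all tested miRNAs, 11.6% were lower than in each line. Whether other cell types had a part in these results was not tested.

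Among 10 miRNAs of the melanocyte lineage and the miR-506 to miR-514 locus, 1 was tested. It was miR-204-5p, known from pigment epithelium, and it had 141 and 87 reads in Huh-7, 2 and 2 in melanoma-derived MV-3, 0 and 5 in ES-2 and 4 and 6 in A-549. It passed the filter only through Huh-7, so it had to be higher there, and nothing is read from its call. With a pseudocount of 0.1, or without either Huh-7 library, it was no longer called against the mean of the lines. miR-211-5p, a melanocyte miRNA in an intron of TRPM1, had 1 and 1 reads in Huh-7 and 0 elsewhere. Of 6 muscle miRNAs 2 were tested and 0 were called. Of 40 miRNAs of the chromosome 19 cluster, which is active in placenta, and of 10 miRNAs of the pluripotency loci miR-302 and miR-371, none was tested. In Huh-7, 40 and 9 of these had 0 reads.

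The oncogenic miR-17-92 cluster was examined as a list. Its summed library CPM was 79311 and 77816 in Huh-7, 41366 to 57620 in ES-2 and MV-3, and 13689 and 13387 in A-549. All 10 listed members were tested, 0 were set apart from each line and 3 were higher than the mean of the lines, a share close to the 29.5% of all tested miRNAs. The median log2 fold change was 0.28 by normalised CPM. The 3 were miR-17-5p, miR-18a-5p and miR-92a-3p, which by library CPM were higher than in each line. miR-92a-3p had 160209 and 124625 reads in the Huh-7 libraries, 7.31% of the total. By normalised CPM it was lower than in ES-2, by a log2 fold change of -0.50 (SE 0.05, limma's adjusted p = 0.000276), and higher than in A-549 by 1.05. Of 44 tested miRNAs of the imprinted DLK1-DIO3 locus, 14 were lower in Huh-7 than the mean of the lines, where 26.1% of all tested miRNAs were, and 0 were set apart from each line. The Huh-7 libraries differed here, with summed library CPM of 34.97 in replicate 1 and 362 in replicate 2. ES-2 libraries differed likewise, with 6.01 and 76.3, whereas MV-3 had 293 and 279 and A-549 had 8353 and 8179. miR-493-5p from this locus, for example, had 5 and 59 reads in Huh-7 and 2554 and 2174 in A-549. Values of this locus in Huh-7 therefore rest on replicate 2.

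Many miRNA names were read in Huh-7 only. At least 1 read in both Huh-7 libraries and 0 in the 6 others was found for 63 names, against 14 for ES-2, 12 for MV-3 and 16 for A-549. Huh-7 had the most such names under other limits as well. At least 4 reads and at most 3 elsewhere gave 87 names for Huh-7 and 6 to 25 for the other lines, and at least 10 reads and 0 elsewhere gave 18 and 0 to 6. A limit at the library CPM of 3 reads in the shallowest library gave 78 and 8 to 21. More names were detected in Huh-7 at a fixed share of reads, too. At least 10 library CPM was reached by 389 and 387 names in Huh-7 and by 281 to 319 in the other libraries, while the 10 most abundant miRNAs took 68.4% and 69.1% of reads in Huh-7 and 69.5% to 81.9% elsewhere. The part of this difference in the counts of names was not tested.

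**Figure D5:**
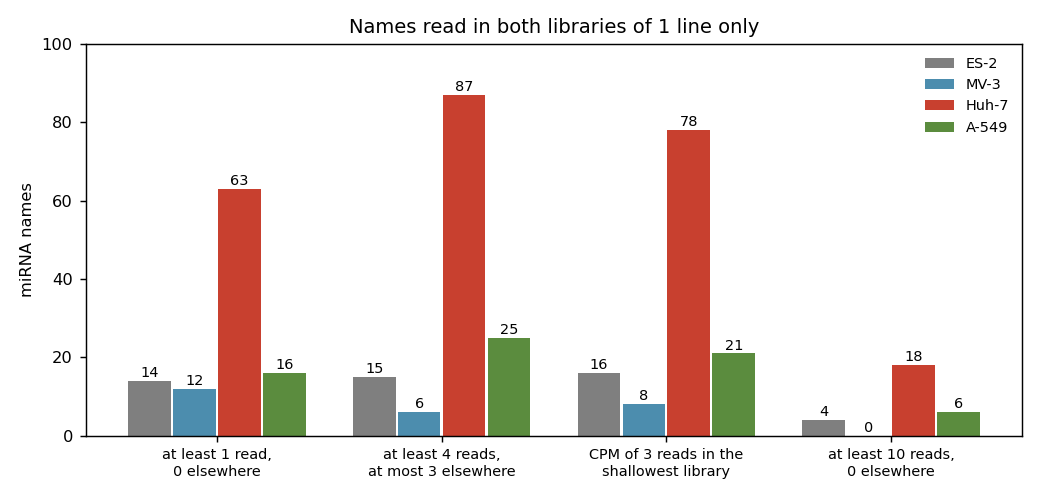
Number of miRNA names (vertical axis) read in both libraries of a single line, under 4 definitions of presence (horizontal axis), with a bar per line and the number above it. Huh-7 has 63, 87, 78 and 18 names and exceeds each other line under all 4 definitions.

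Most of the 63 names rested on few reads. Their reads summed over both Huh-7 libraries had a median of 14 and ran from 2 to 1891, and together they made up 0.151% and 0.143% of Huh-7 reads. Of the 63, 11 passed the filter, which they could do only through Huh-7, so that they had to be higher there. Of the 63, 18 had at least 10 reads in both libraries, and 11 had at most 3 in both. miR-885-3p, miR-122-3p and miR-618 led, as given above. They were followed by miR-4713-5p with 102 and 86 reads, miR-215-3p with 74 and 33, miR-4652-5p with 56 and 47, miR-3145-3p with 39 and 38, miR-4796-3p with 38 and 36, miR-187-3p with 32 and 38 and miR-3171 with 30 and 20. No role is given here for the high-numbered names among them, which were added late to miRBase. Of the 63, 40 (63.5%) had a name number of 3000 or more, against 44.8% of all names with a read.

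Some of these names are the second arm of a hairpin that was high in Huh-7. For 37 of the 63 the partner arm had reads. For 11 of these the partner was higher than in each line, as in miR-122, miR-885, miR-215, miR-216b and miR-642a. Not all of the 37 partners were tested, so the 11 cannot be set against the 14.2% of all tested miRNAs. In 6 cases the partner was itself read only in Huh-7. Where tested, such partners had to be higher there, as miR-4652-5p and miR-187-3p were, and nothing is read from the 11. In 31 cases the partner arm was also read in another line. The names came from 23 chromosomes, and of 60 with a single place 44 (73.3%) lay in introns only, against 61.0% of all names with a read. A host gene does not show that the hairpin is transcribed with it.

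Only 13 names were missing from both Huh-7 libraries and read in all 6 others, against 9 for ES-2, 7 for MV-3 and 4 for A-549. Of 12 with an arm name, 11 are -3p arms, against 51.7% of all arm-named miRNAs with a read. miR-125b-1-3p, from MIR100HG on chromosome 11, had 803 and 1267 reads in ES-2, 787 and 1239 in MV-3, 135 and 77 in A-549 and 0 in Huh-7, at least 78.1-fold lower than in A-549 by normalised CPM and at least 28.1-fold by library CPM. The others were miR-361-3p, miR-100-3p, miR-10a-3p, miR-31-3p, miR-138-1-3p, miR-550a-3p, let-7b-3p, let-7c-3p, let-7f-1-3p, let-7i-3p, miR-767-5p and miR-935. Of these 13, 7 were lower than in each line by limma, beside 11.6% of all tested miRNAs. The 13 were picked for having 0 reads in Huh-7, so nothing is read from these calls. Among those not called, miR-767-5p, an X-linked miRNA in an intron of GABRA3, had 138 and 205 reads in MV-3 but 2 and 1 in A-549.

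The balance of the arms of a hairpin was compared last, since a ratio within a library does not depend on scaling. Of 134 hairpins with at least 10 reads of both arms together in every library, the ratio of the 5p to the 3p arm was called higher in Huh-7 than in the mean of the lines for 5 (3.73%) and lower for 4 (2.99%). For 8 of these 9 an arm had 0 reads in both Huh-7 libraries, so that the ratio followed the reads of the other arm. They include the 5 with the largest differences, miR-196a, let-7g, let-7i, miR-550a and miR-196b. The exception was miR-27a, whose 5p arm supplied 3.52% and 3.64% of its reads in Huh-7, 5.86% and 5.95% in MV-3, 6.45% and 7.02% in A-549 and 9.21% and 9.89% in ES-2. On the log2 scale the ratio differed by -1.05 (SE 0.15, limma's adjusted p = 0.0057) from the mean of the lines, and by pair it was called against ES-2 alone.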

How the data were processed

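Small RNA-seq libraries of 4 parental lines, 2 per line, were assigned to lines by their labels. The study calls the 2 libraries of a line biological replicates, and p-values measure the spread between such libraries only. Per the study's methods and the submitters' processing notes, reads were trimmed with cutadapt 1.14, aligned to hg38 with Bowtie2 2.3.2 and counted on miRBase miRNAs with featureCounts 1.5.3. Handling of reads with several alignments and of strand is not given in the sources used here. The authors deposited normalised signal values, scaled by TMM with edgeR 3.18.1, and these are called normalised CPM. Dividing each column by the value of a single read, estimated from its lowest values, returned whole reads for 100% of values (tolerance 0.001), and with them the library sizes. A floor of 3 reads per library was used, and intervals and floors cover counting error only.

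Entries of 167 of the 2588 names were summed over genomic copies. The test was limma with a mean-dependent prior variance on log2(normalised CPM + 1), with 1 term per line over all 8 libraries, after filterByExpr on reads. The count tools edgeR and DESeq2 on recovered reads were alternatives, as were library size only, RLE factors, other filters, a pseudocount of 0.1, other thresholds, a replicate block, the highest entry of a name, and leaving out each library. SDs are over 2 libraries. Tests were tried on simulated reads. Named miRNAs were the 4 liver markers, the 12 highest with at least 100 library CPM in Huh-7 and the 12 lowest with at least 100 in each other line (by the weakest pair), the 10 leading names read only in, or missing only from, Huh-7, up to 4 members of each list, the 5 most changed seed families and arm ratios and the 5 most abundant in Huh-7. A result that these rules name is not reported here. Further names belong to the sets counted and were picked after their values were seen. The members and lists were chosen with earlier results of these data known. Of 1327 names with reads, 1184 had a RefSeq sequence and 1299 a hairpin in RefSeq or GENCODE release 44. Software was R 4.3.3, limma 3.58.1, edgeR 4.0.16 and DESeq2 1.42.0.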

Additional observations from a re-analysis of the deposited data

How the results depend on the processing

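The numbers of miRNAs called in the 4 comparisons, both directions together, and of those lower than in each line stayed within 1.5 times under all alternatives tried. By direction the numbers moved more, with 244 in place of 125 called higher than in A-549 by library size only. Of 77 named miRNAs, 54 kept their direction and their side of the threshold under each. The number higher than in each line, 75, was 146 with library size only and 46 with DESeq2. edgeR gave 69 higher and 64 lower. Leaving out single libraries gave 46 (without Huh-7 replicate 1) to 70 higher miRNAs, 67 to 94 seed families set apart and 3 to 9 arm ratios, the 3 without either Huh-7 library, where the lone library was assumed to vary like the other lines. For the 63 names read only in Huh-7 it gave 69 to 133 (117 without Huh-7 replicate 1, 133 without replicate 2). With at least 10 reads there were 18 such names and 6 missing only from Huh-7. Arm ratios numbered 5 with at least 50 reads and 16 at an adjusted p below 0.05.

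Differences against the mean that were not called changed sign for 4 miRNAs. miR-143-3p (-0.48) was 0.50 with library size only. miR-499a-5p (-0.22) was 0.44 with library size only, 0.56 with a pseudocount of 0.1 and -0.74 to 0.30 without single libraries. Without single libraries, miR-1-3p ran from -0.47 to 1.0001 and miR-493-5p from -3.03 to 0.11.

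The labels share replicate numbers, and replicate differences of the lines correlated at -0.05 to 0.23, so that the numbers were not taken as pairs. With a replicate block, 71 miRNAs were higher and 61 lower than in each line, 298 were called against the mean, and 94 seed families and 8 arm ratios were called. With 2 libraries a group, depth limits names with few reads most.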
